A study of Mus musculus with 26 samples.

Results

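The cell cycle and DNA replication genes described here are 40 mouse genes, taken by symbol from a table of 55401 genes and sorted by textbook role into 3 classes. The G1/S class has 11 genes: the cyclins Ccnd1, Ccnd2, Ccnd3, Ccne1 and Ccne2, the kinases Cdk2, Cdk4 and Cdk6, the phosphatase Cdc25a, and the transcription factors E2f1 and E2f2. The replication class has 12 genes: Cdc6, Cdt1, Mcm2, Mcm3, Mcm4, Mcm5, Mcm6, Mcm7, Pcna, Rrm1, Rrm2 and Tyms. The mitotic class has 17 genes: Ccna2, Ccnb1, Ccnb2, Cdk1, Cdc20, Mki67, Top2a, Birc5, Bub1, Bub1b, Aurka, Aurkb, Plk1, Foxm1, Cenpa, Kif11 and Tpx2. The genes were given by name and no threshold on a measured value chose them, although earlier results of these data were known by then. All 40 were found and all 40 passed the filter on low counts, 37 of them above 1 CPM (reads scaled to a common library size) in every library. They lie on 16 chromosomes.

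A cell that leaves rest builds D-type cyclins with Cdk4 and Cdk6, which relieve the retinoblastoma proteins' block on E2F factors. E2F then drives genes that load the MCM helicase onto origins and supply the replication fork, while a later program that runs through Foxm1 and the MuvB complex drives the genes of chromosome segregation. Adult hepatocytes rarely divide, although the liver can re-enter the cycle after injury, and other cells of the organ, such as macrophages, lymphocytes and bile duct cells, divide as well.

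Liver RNA came from male C57BL/6 mice on a high-fat diet (HFD) that began at 4 weeks of age and lasted 18 weeks; the series design also names high cholesterol. The 9 untreated HFD mice were compared with 8 mice on the same diet that received UCMSC-Exos, exosomes derived from UCMSC, into the tail vein at intervals of 72 hours over 8 weeks. The labels name no injection for the controls, so effects of exosomes, of injecting the mice and of housing cannot be told apart. The third group, LSCR, with 9 of the series' 26 samples, was not analysed here. Exosomes are small membrane vesicles that cells release. Each library is labelled as a separate mouse liver, and in such bulk tissue fewer cells of a type and less RNA per cell cannot be told apart.

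Library totals lay between 32.9 and 36.1 M reads and did not differ detectably between groups (two-sided exact permutation test, p = 0.180). The scaling factors (TMM), which enter CPM and the tests, did differ. They ran from 0.973 to 1.12 in the untreated libraries and from 0.868 to 0.945 in 7 treated libraries, with 1.18 in UCMSC-Exos 9. Some libraries stood apart. In UCMSC-Exos 9 the summed hepatocyte markers, 42077 CPM, lay within the untreated range of 35148 to 53459 CPM, whereas the other 7 treated libraries lay between 54320 and 76195 CPM. Its cholangiocyte markers (590 CPM) and stellate and fibroblast markers (2164 CPM) were also outside the range of the other 7 treated libraries, at 48.8 to 128 and 500 to 746 CPM. Untreated HFD 3 held 10065 CPM of pancreas markers, against at most 18.4 CPM in the other libraries of both groups. Untreated HFD 9 had the highest kidney marker sum, 5.10 CPM, not far above the 1.80 to 4.36 CPM of the 7 treated libraries other than UCMSC-Exos 9. The part of these transcripts in the results was not tested, and the main counts below are given with and without UCMSC-Exos 9.

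In livers of the UCMSC-Exos group, transcripts of the D-type cyclins Ccnd1 and Ccnd2 and of all 6 MCM helicase subunits were lower than in untreated livers, while no mitotic gene passed the test. The calls of Ccnd1 and Ccnd2 held in every alternative fit run, and those of the MCM genes did not. Of the 40 genes, 13 fell and 0 rose at an adjusted p of 0.05 (edgeR's quasi-likelihood test, Benjamini-Hochberg adjustment over 16238 genes). Among all genes tested 10.4% fell and 9.73% rose. By class, 5 of 11 G1/S genes, 8 of 12 replication genes and 0 of 17 mitotic genes fell. The median log2 fold changes were −0.33, −0.60 and −0.21, beside −0.02 over all genes tested. Without UCMSC-Exos 9, where 20.6% of all genes fell, 21 of the 40 fell: 5 G1/S, 11 replication and 5 mitotic genes. The class medians were then −0.40, −0.73 and −0.48.

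The order of the classes by their counts depended on the fit, and a difference between classes was not tested. Surrogate variables are unnamed patterns of variation that a program estimates from all genes and the model then includes. The program estimated 4, and at most 3 were allowed. With 3 surrogate variables 5.27% of all genes fell. There 3 of 11 G1/S genes fell (Ccnd1, Ccnd2 and Ccne2) and 0 of 12 replication genes, with log2 fold changes of −0.22 to −0.60 and adjusted p of 0.0752 to 0.266 for the 6 MCM genes (edgeR). With untreated HFD 3 and 9 left out, 9.74% of all genes fell, with 7 of 11 G1/S genes and 4 of 12 replication genes, Mcm2, Mcm3, Mcm4 and Mcm5. Without the filter on low counts 3.39% of all genes fell, and with the replicate number as a block 10.6% did. Both fits left 8 or 9 of the 40 passing and ended the calls of Mcm6 and Mcm7.

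**Figure D1:**
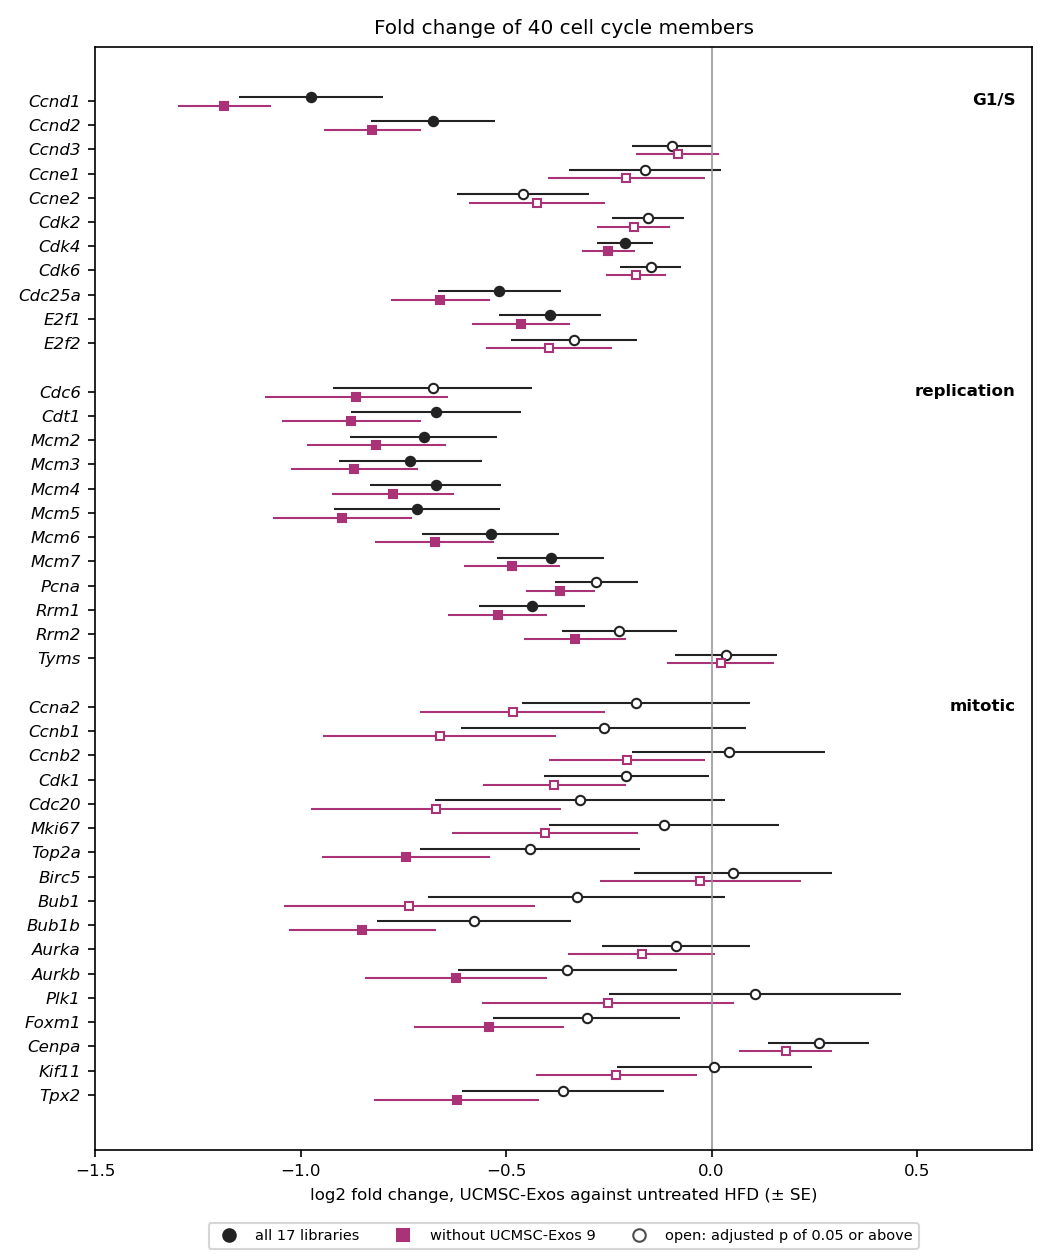
Log2 fold change of each of the 40 genes, UCMSC-Exos against untreated HFD, with its standard error, from all 17 libraries (black circles) and without UCMSC-Exos 9 (purple squares); filled symbols passed an adjusted p of 0.05 and open symbols did not. No mitotic gene has a filled black circle, and 5 have a filled square.

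Promoter sequences are shown because the E2F and MuvB programs act there and the list of names did not use them. RefSeq promoter entries (GRCm38.p6, the assembly that mm10 denotes) were found for 32 of the 40 genes, 35 entries in all; those without a match were Ccnd1, Ccnd2, Ccne2, Mcm4, Ccna2, Aurkb, Foxm1 and Tpx2. Each entry spans 300 bases, 250 of them before the start and 50 after it. The E2F letters searched on both strands were TTGGCGC and 2 variants, of which one reads TTCCCGC and the other reads TTCGCGC. Those of the CHR were TTTGAA and the longer form TTTCGAA. Over the 300 bases, letters of E2F sites occurred in 8 of 12 replication entries, 3 of 10 G1/S entries and 3 of 13 mitotic entries, against 8.07% of all 32851 entries. Letters of the cell cycle homology region (CHR), where MuvB complexes bind, occurred in 10 of 13 mitotic entries, 2 of 12 replication entries and 1 of 10 G1/S entries, against 18.5% of all. In the 250 bases before the start alone, E2F letters occurred in 6 of 12 replication entries against 6.69% of all, and CHR letters in 6 of 13 mitotic entries against 16.5% of all. The letters CCAAT, on either strand, occurred in 12 mitotic, 9 replication and 5 G1/S entries over the 300 bases, against 37.4% of all. Matches may overlap, as where TTGGCGC shares bases with the reverse complement of TTCGCGC, and a match describes letters, not binding. The 120 bases before the start follow for 1 G1/S gene, 2 replication genes that fell, and 4 mitotic genes, each 5′ to 3′ along the gene's strand, with E2F and CHR letters in capitals. These genes were picked because they hold such letters before the start. CHR letters were not found there in 7 of the 13 mitotic genes with an entry: Aurka, Birc5, Bub1, Bub1b, Ccnb1, Cenpa and Plk1.
Cdc25a, chr9:109875459-109875578, plus strand: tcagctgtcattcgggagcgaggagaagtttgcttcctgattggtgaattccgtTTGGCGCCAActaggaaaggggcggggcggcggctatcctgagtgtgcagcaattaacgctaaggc
Mcm6, chr1:128359706-128359825, minus strand: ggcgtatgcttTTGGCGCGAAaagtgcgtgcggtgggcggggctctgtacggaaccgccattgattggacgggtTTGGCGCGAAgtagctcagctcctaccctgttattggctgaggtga
Rrm1, chr7:102441575-102441694, plus strand: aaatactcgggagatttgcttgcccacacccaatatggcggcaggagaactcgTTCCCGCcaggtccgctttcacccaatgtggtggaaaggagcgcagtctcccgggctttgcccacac
Cdk1, chr10:69352913-69353032, minus strand: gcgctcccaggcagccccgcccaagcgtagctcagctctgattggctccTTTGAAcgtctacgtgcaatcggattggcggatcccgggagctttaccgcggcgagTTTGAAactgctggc
Cdc20, chr4:118437344-118437463, minus strand: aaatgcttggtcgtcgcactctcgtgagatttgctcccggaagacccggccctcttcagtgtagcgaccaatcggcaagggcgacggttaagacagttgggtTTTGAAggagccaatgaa
Mki67, chr7:135716380-135716499, minus strand: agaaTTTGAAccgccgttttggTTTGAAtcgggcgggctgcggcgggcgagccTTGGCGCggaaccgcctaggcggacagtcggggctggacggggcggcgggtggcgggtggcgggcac
Top2a, chr11:99024190-99024309, minus strand: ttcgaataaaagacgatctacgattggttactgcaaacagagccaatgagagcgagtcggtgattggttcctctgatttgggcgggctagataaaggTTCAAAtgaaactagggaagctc
In Mcm6 the run TTGGCGCGAA, which holds E2F letters on both strands, appears 2 times in this window. The Cdk1 stretch has TTTGAA 2 times, Cdc20 has it once, Top2a has its reverse complement TTCAAA, and Mki67 has TTTGAA 2 times and TTGGCGC once.

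Among the G1/S genes, 2 of the 3 D-type cyclins fell. Ccnd1 (ENSMUSG00000070348.5, mm10 chr7:144929931-144939925) encodes cyclin D1, a cyclin linked to hepatocyte cell cycle entry. It ran from 87.6 to 164 CPM in the untreated libraries (median 137) and from 49.2 to 133 CPM in the treated ones (median 59.5). The 133 CPM belonged to UCMSC-Exos 9, and the other 7 treated libraries, at 49.2 to 70.1 CPM, lay below every untreated library. The untreated mean was 135 ± 22.9 CPM (SD, n = 9) and the treated mean 68.4 ± 27.2 CPM (SD, n = 8). The log2 fold change was −0.98 ± 0.18 (SE; edgeR adjusted p = 0.00118), and −1.19 ± 0.11 without UCMSC-Exos 9. Of its 4709 exon bases 23.4% are shared with LTO1, and since no strand option was used, reads there cannot be assigned to either gene with certainty.

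Ccnd2 (chr6:127125162-127152193), encoding cyclin D2, had 22.97 to 47.5 CPM in the untreated libraries (median 35.5) and 16.6 to 35.9 CPM in the treated ones (median 19.5). Again UCMSC-Exos 9 was the high treated library, and the other 7, at 16.6 to 22.4 CPM, did not overlap with the untreated group. The log2 fold change was −0.68 ± 0.15 (edgeR adjusted p = 0.00528). Ccnd3 (chr17:47505051-47599691), the third D-type cyclin, had 32.8 to 59.5 CPM untreated (median 37.3) and 33.3 to 43.7 CPM treated (median 37.5). The groups overlapped almost fully, and the log2 fold change of −0.10 ± 0.10 did not pass (edgeR adjusted p = 0.497). Its 59.5 CPM came from untreated HFD 3, the library with pancreas transcripts.

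The partner kinases had small log2 fold changes. Cdk4, which binds the D-type cyclins, had 35.7 to 45.9 CPM untreated (median 40.01) and 29.7 to 41.2 CPM treated (median 33.9). It fell by 0.21 ± 0.07 (log2; edgeR adjusted p = 0.0363), a small change that did not pass in 9 of 17 fits that each left out 1 library. They were those without untreated HFD 1, 2 or 6 or UCMSC-Exos 1, 2, 3, 5, 7 or 8, with adjusted p up to 0.0821. A share of 19.7% of its exon bases lies in Tspan31 as well. Cdk6, the other D-cyclin kinase, was at 52.1 ± 5.65 CPM (SD, n = 9) untreated and 47.0 ± 4.47 CPM (SD, n = 8) treated. Cdk2, the kinase of the E-type cyclins, was at 17.01 ± 1.86 and 15.3 ± 1.92 CPM. Neither passed, with log2 fold changes of −0.15 ± 0.07 and −0.16 ± 0.09 (edgeR adjusted p = 0.157 and 0.211).

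Cdc25a (chr9:109875579-109893895), the phosphatase that activates Cdk2, had 8.92 to 16.1 CPM untreated (median 10.5) and 5.22 to 12.8 CPM treated (median 7.05). The 7 treated libraries other than UCMSC-Exos 9 reached at most 8.36 CPM and lay below all untreated ones. The log2 fold change was −0.52 ± 0.15 (edgeR adjusted p = 0.0224), and −0.66 ± 0.12 without UCMSC-Exos 9. E2f1, an activating E2F factor, had 10.4 to 18.0 CPM untreated (median 12.3) and 7.61 to 13.2 CPM treated (median 10.1). The ranges overlapped. The log2 fold change of −0.39 ± 0.12 passed (edgeR adjusted p = 0.0329), yet not when untreated HFD 5 or UCMSC-Exos 1, 2, 3, 5 or 7 was left out, the highest adjusted p being 0.0726. E2f2, its close relative, went from 5.44 ± 1.06 to 4.31 ± 0.912 CPM and did not pass (−0.33 ± 0.15, edgeR adjusted p = 0.124).

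The E-type cyclins, which act with Cdk2 at the entry into S phase, did not pass. Ccne1 had 2.01 to 6.22 CPM untreated (median 5.21) and 2.89 to 5.64 CPM treated (median 4.10), with its lowest value in untreated HFD 1 (log2 fold change −0.16 ± 0.18, edgeR adjusted p = 0.554). Ccne2 had 2.52 to 4.48 CPM untreated (median 4.21) and 2.05 to 4.36 CPM treated (median 2.52). Its log2 fold change was −0.46 ± 0.16 (edgeR adjusted p = 0.0503), and without untreated HFD 3 or UCMSC-Exos 7 the adjusted p was 0.0211 or 0.0168. UCMSC-Exos 9, high for most of the class, was among the low libraries for Ccne2, at 2.33 CPM.

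**Figure D2:**
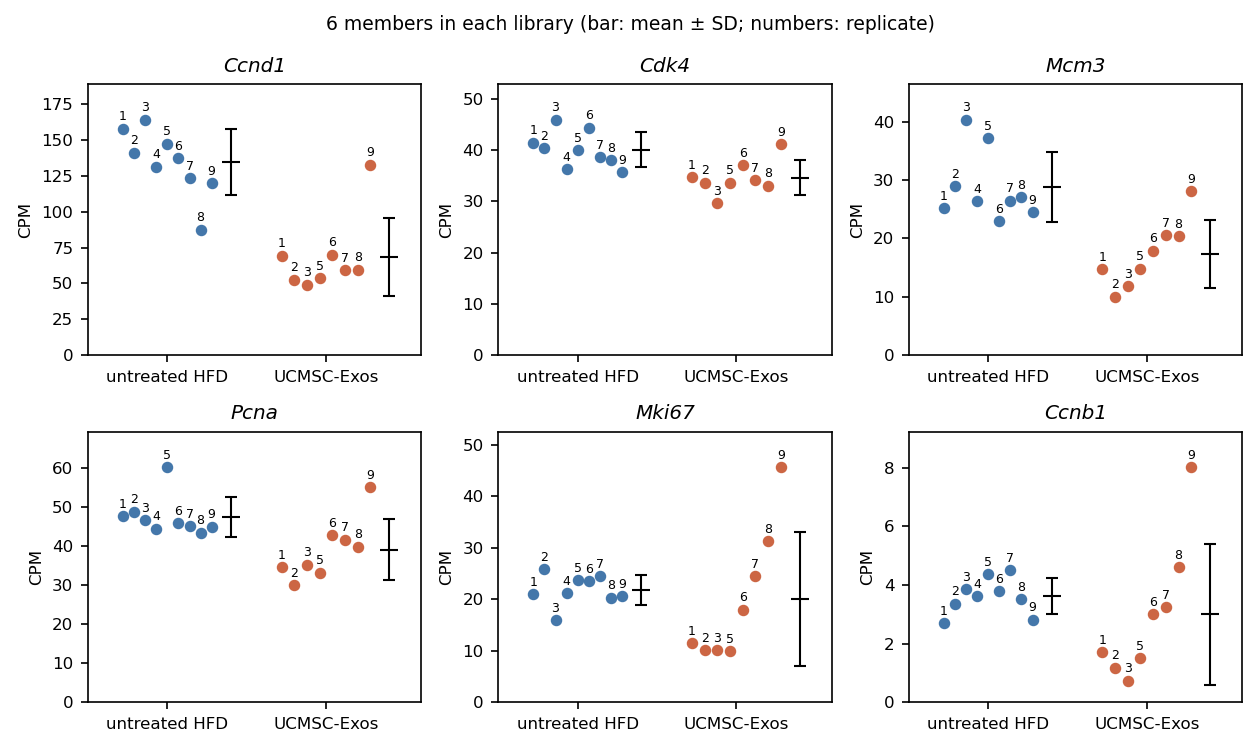
CPM of 6 genes in each of the 17 libraries, numbered by replicate, with the group mean ± SD as a bar. For Ccnd1, UCMSC-Exos 9 stands at 133 CPM, above the 49.2 to 70.1 CPM of the other treated libraries; for Mki67, UCMSC-Exos 1, 2, 3 and 5 lie between 9.89 and 11.5 CPM and UCMSC-Exos 9 at 45.6 CPM.

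Of the 12 replication genes 8 fell. Mcm2 to Mcm7 encode the 6 subunits of the ring helicase that is loaded onto origins and unwinds DNA at the fork, and all 6 fell, although none passed with surrogate variables. Mcm3 (chr1:20802968-20820312) had 23.02 to 40.3 CPM in the untreated libraries (median 26.5) and 10.03 to 28.1 CPM in the treated ones (median 16.4). The 28.1 CPM was UCMSC-Exos 9, and the other 7 treated libraries, at most 20.6 CPM, lay below the untreated range. The log2 fold change was −0.73 ± 0.17 (edgeR adjusted p = 0.00794), the lowest of the class. Mcm5 (chr8:75109569-75128439) had the same arrangement, with 20.6 to 39.4 CPM untreated (median 25.0), 9.44 to 20.4 CPM in 7 treated libraries and 29.9 CPM in UCMSC-Exos 9. Mcm5 fell by 0.72 ± 0.20 (log2; edgeR adjusted p = 0.0200).

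Mcm2 (chr6:88883474-88898780) had 21.4 to 40.01 CPM untreated (median 26.1) and 9.77 to 25.7 CPM treated (median 15.1). Mcm4 (chr16:15623897-15637400) had 17.4 to 30.8 CPM untreated (median 20.7) and 8.56 to 19.8 CPM treated (median 11.5). For both genes the groups overlapped, all 8 treated libraries lay below the untreated median, and untreated HFD 5 was the highest library. Their log2 fold changes were −0.70 ± 0.18 and −0.67 ± 0.16 (edgeR adjusted p = 0.0126 and 0.00770).

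Mcm6 (chr1:128331590-128359664) had 32.2 to 62.0 CPM untreated (median 39.5) and 19.0 to 46.3 CPM treated (median 28.2). Mcm7 had 22.5 to 39.6 CPM untreated (median 26.9) and 16.1 to 31.3 CPM treated (median 21.9). In both the highest treated library was UCMSC-Exos 9. The log2 fold changes, −0.54 ± 0.17 and −0.39 ± 0.13 (edgeR adjusted p = 0.0311 and 0.0409), were the smallest of the 6 subunits. Mcm6 did not pass in 5 of the 17 fits that left out 1 library (UCMSC-Exos 1, 2, 3, 5 or 8; adjusted p up to 0.0673). Mcm7 did not pass in 11 of them, untreated HFD 2, 3, 4, 5 or 7 or UCMSC-Exos 1, 2, 3, 5, 6 or 7 (adjusted p up to 0.0869). Mcm7 shares 12.6% of its exon bases with Ap4m1, Cops6 and the microRNA genes Mir25 and Mir93.

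Cdt1 and Cdc6 load the helicase onto origins. Cdt1 (chr8:122568015-122573554) had 8.87 to 18.5 CPM untreated (median 12.0) and 5.06 to 14.8 CPM treated (median 6.83), and fell by 0.67 ± 0.21 (edgeR adjusted p = 0.0304). That call was lost without untreated HFD 5 or UCMSC-Exos 1, 2, 3, 5 or 7, with adjusted p up to 0.0660. Cdc6 had 2.45 to 5.45 CPM untreated (median 3.67) and 1.102 to 4.37 CPM treated (median 2.22). Its log2 fold change of −0.68 ± 0.24 was as large as that of Cdt1 but missed the threshold (edgeR adjusted p = 0.0543), and passed without untreated HFD 8 (0.0405) or UCMSC-Exos 9 (0.00557).

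Pcna (chr2:132249162-132253314), the sliding clamp of the DNA polymerases, had 43.4 to 60.2 CPM untreated (median 45.8) and 30.0 to 55.0 CPM treated (median 37.5). The 55.0 CPM was UCMSC-Exos 9; the other 7 treated libraries, at most 42.8 CPM, lay just below the untreated range. With all libraries Pcna did not pass (−0.28 ± 0.10, edgeR adjusted p = 0.0570), and without UCMSC-Exos 9 it did (−0.37 ± 0.08, edgeR adjusted p = 0.00218). Untreated HFD 5 held the highest Pcna value, as it did for Mcm2, Mcm4, Mcm5, Mcm6, Cdc6, Cdt1, Rrm1 and Tyms. For Rrm2 it was the highest untreated library.

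Of the 3 enzymes of nucleotide supply 1 fell. Rrm1 (chr7:102441695-102469771), the large subunit of ribonucleotide reductase, had 23.1 to 35.0 CPM untreated (median 26.5) and 14.7 to 28.2 CPM treated (median 18.2), and fell by 0.44 ± 0.13 (edgeR adjusted p = 0.0253). The call was lost without UCMSC-Exos 2, 3 or 5 (adjusted p up to 0.0579). Rrm2, the small subunit, had 15.9 to 22.4 CPM untreated (median 19.0) and 10.3 to 24.1 CPM treated (median 16.2), with UCMSC-Exos 9 the highest of all 17 libraries. It did not pass (−0.22 ± 0.14, edgeR adjusted p = 0.257) but did without UCMSC-Exos 9 (−0.33 ± 0.12, 0.0433). Tyms, thymidylate synthase, was at 7.61 ± 1.42 CPM (SD, n = 9) untreated and 7.80 ± 1.154 CPM (SD, n = 8) treated. Its log2 fold change of 0.03 ± 0.12 (edgeR adjusted p = 0.867) was the only one of the class above 0, and 2 of 8 treated libraries were below the untreated median.

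The 7 genes Ccnd1, Ccnd2, Cdc25a, Mcm2, Mcm3, Mcm4 and Mcm5 passed in each of the 17 fits that left out 1 library. Of these 7, the calls of Cdc25a, Mcm2, Mcm3, Mcm4 and Mcm5 ended with surrogate variables (edgeR adjusted p = 0.200, 0.114, 0.0803, 0.0752 and 0.178). Of the 40 genes, 8 fell without UCMSC-Exos 1, where 6.41% of all genes tested fell. Without UCMSC-Exos 2, 3 or 5 the count was 7, where 5.91%, 5.65% and 6.58% of all genes fell. Without UCMSC-Exos 9 it was 21, where 20.6% of all genes fell. In all 17 libraries, no gene of the 40 had every treated library below every untreated one, against 0.807% of all genes tested. Without UCMSC-Exos 9 there were 6 such genes, Ccnd1, Ccnd2, Cdc25a, Mcm3, Mcm5 and Pcna, against 4.34% of all genes.

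Among the mitotic genes 0 fell, and the treated libraries lay far from each other. Mki67 (chr7:135689784-135716361), which encodes the proliferation antigen Ki-67, had 15.9 to 25.8 CPM in the untreated libraries (median 21.2). In UCMSC-Exos 1, 2, 3, 5, 6, 7, 8 and 9 it had 11.5, 10.2, 10.1, 9.89, 18.0, 24.4, 31.3 and 45.6 CPM. The treated libraries thus lay on both sides of the untreated range, 4 of them below it and UCMSC-Exos 8 and 9 above it. The means were close, 21.8 ± 2.94 CPM (SD, n = 9) and 20.1 ± 12.97 CPM (SD, n = 8), and the log2 fold change was −0.12 ± 0.28 (edgeR adjusted p = 0.797).

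The cyclins and kinase of mitotic entry also had treated libraries on both sides of the untreated range. Ccnb1 (chr13:100778650-100786570), cyclin B1, had 2.69 to 4.504 CPM untreated (median 3.61) and, in the same order of treated libraries, 1.70, 1.18, 0.735, 1.52, 3.00, 3.24, 4.60 and 8.02 CPM. Ccna2, cyclin A2, had 4.03 to 5.45 CPM untreated (median 4.66) and 2.89, 2.36, 1.70, 1.83, 3.41, 5.13, 5.99 and 9.43 CPM treated. For both, UCMSC-Exos 1, 2, 3 and 5 were below every untreated library and UCMSC-Exos 8 and 9 above every one; for Ccna2, UCMSC-Exos 6 was below as well. Cdk1 (chr10:69335146-69352938), the kinase they activate, had 5.16 to 7.88 CPM untreated (median 6.53) and 3.31 to 10.02 CPM treated (median 5.03), with 5 treated libraries below the untreated range and UCMSC-Exos 8 and 9 above it. Ccnb2, cyclin B2, had 2.90 to 4.37 CPM untreated (median 3.54) and 1.70 to 7.64 CPM treated (median 3.35), with UCMSC-Exos 1, 2, 3 and 5 below the untreated range, UCMSC-Exos 7 and 9 above it and UCMSC-Exos 8 within it. The log2 fold changes of the 4 genes ran from −0.26 ± 0.35 for Ccnb1 to 0.04 ± 0.24 for Ccnb2, and none passed.

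Top2a (chr11:98992943-99024189), the topoisomerase that untangles sister chromatids, had 18.8 to 26.5 CPM untreated (median 21.5) and 10.8, 8.85, 6.39, 9.30, 14.1, 18.5, 22.02 and 36.6 CPM in the treated libraries. Here 6 of 8 treated libraries were below the untreated range, and only UCMSC-Exos 9 was above it. The log2 fold change was −0.44 ± 0.27 (edgeR adjusted p = 0.246), and −0.74 ± 0.20 without UCMSC-Exos 9 (edgeR adjusted p = 0.00876). Bub1b (chr2:118598211-118641591), a kinase-like protein of the spindle checkpoint, had 4.36 to 6.98 CPM untreated (median 5.51) and 1.87 to 8.35 CPM treated (median 3.39), with 8.35 CPM in UCMSC-Exos 9 and at most 4.51 CPM in the others. Its log2 fold change, −0.58 ± 0.24, was the lowest of the class (edgeR adjusted p = 0.0872), and −0.85 ± 0.18 without UCMSC-Exos 9 (edgeR adjusted p = 0.00125). Bub1, the checkpoint kinase, had 1.04 to 2.201 CPM untreated (median 1.80) and 0.426 to 3.69 CPM treated (median 1.00).

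Foxm1, the transcription factor of the mitotic program, had 3.65 to 6.27 CPM untreated (median 4.45) and 2.27 to 7.76 CPM treated (median 2.90). Aurkb, the kinase of the chromosomal passenger complex, had 3.37 to 4.83 CPM untreated (median 3.83) and 1.31 to 6.77 CPM treated (median 2.29). Tpx2, which activates Aurora A on the spindle, had 5.29 to 7.09 CPM untreated (median 6.16) and 2.37 to 10.3 CPM treated (median 4.16). None of the 3 passed with all libraries. Without UCMSC-Exos 9 all 3 did, at log2 fold changes of −0.54 ± 0.18, −0.62 ± 0.22 and −0.62 ± 0.20 (edgeR adjusted p = 0.0275, 0.0358 and 0.0218).

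The remaining mitotic genes did not pass even without that library. Aurka, the spindle pole kinase, had 3.65 to 7.14 CPM untreated (median 5.47) and 2.98 to 7.28 CPM treated (median 5.21). Birc5, which encodes survivin, had 2.79 to 6.64 CPM untreated (median 3.68) and 1.87 to 5.67 CPM treated (median 4.33). Their log2 fold changes without UCMSC-Exos 9 were −0.17 ± 0.18 and −0.03 ± 0.25, and neither passed. Cenpa, the centromeric histone H3 variant, had 6.35 to 10.1 CPM untreated (median 8.73) and 7.68 to 14.1 CPM treated (median 9.96), a log2 fold change of 0.26 ± 0.12 (edgeR adjusted p = 0.135), the highest of all 40 genes. Kif11, a spindle motor, and Plk1, a mitotic kinase, had log2 fold changes of 0.01 ± 0.24 and 0.11 ± 0.36, with treated ranges of 2.91 to 12.3 and 0.802 to 7.71 CPM around untreated ranges of 5.10 to 7.32 and 1.48 to 3.86 CPM. Cdc20, which activates the anaphase-promoting complex, had 3.71 to 10.2 CPM untreated (median 5.25) and 1.304 to 10.98 CPM treated (median 3.599), and its 10.2 CPM came from untreated HFD 3.

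With a count of 0 passing in the mitotic class, 1 gene was lower (Bub1b) and 1 higher (Cenpa) at an unadjusted edgeR p under 0.05. DESeq2 called 0 mitotic genes as well, with 12.7% of all genes lower. In limma voom with quality weights, which gives discordant libraries less weight, 11 of 17 were lower, where 25.5% of all genes were. With surrogate variables Cenpa rose, where 694 of 16238 genes did. A log2 fold change near 0 in this class therefore stood beside library values far from 0.

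**Figure D3:**
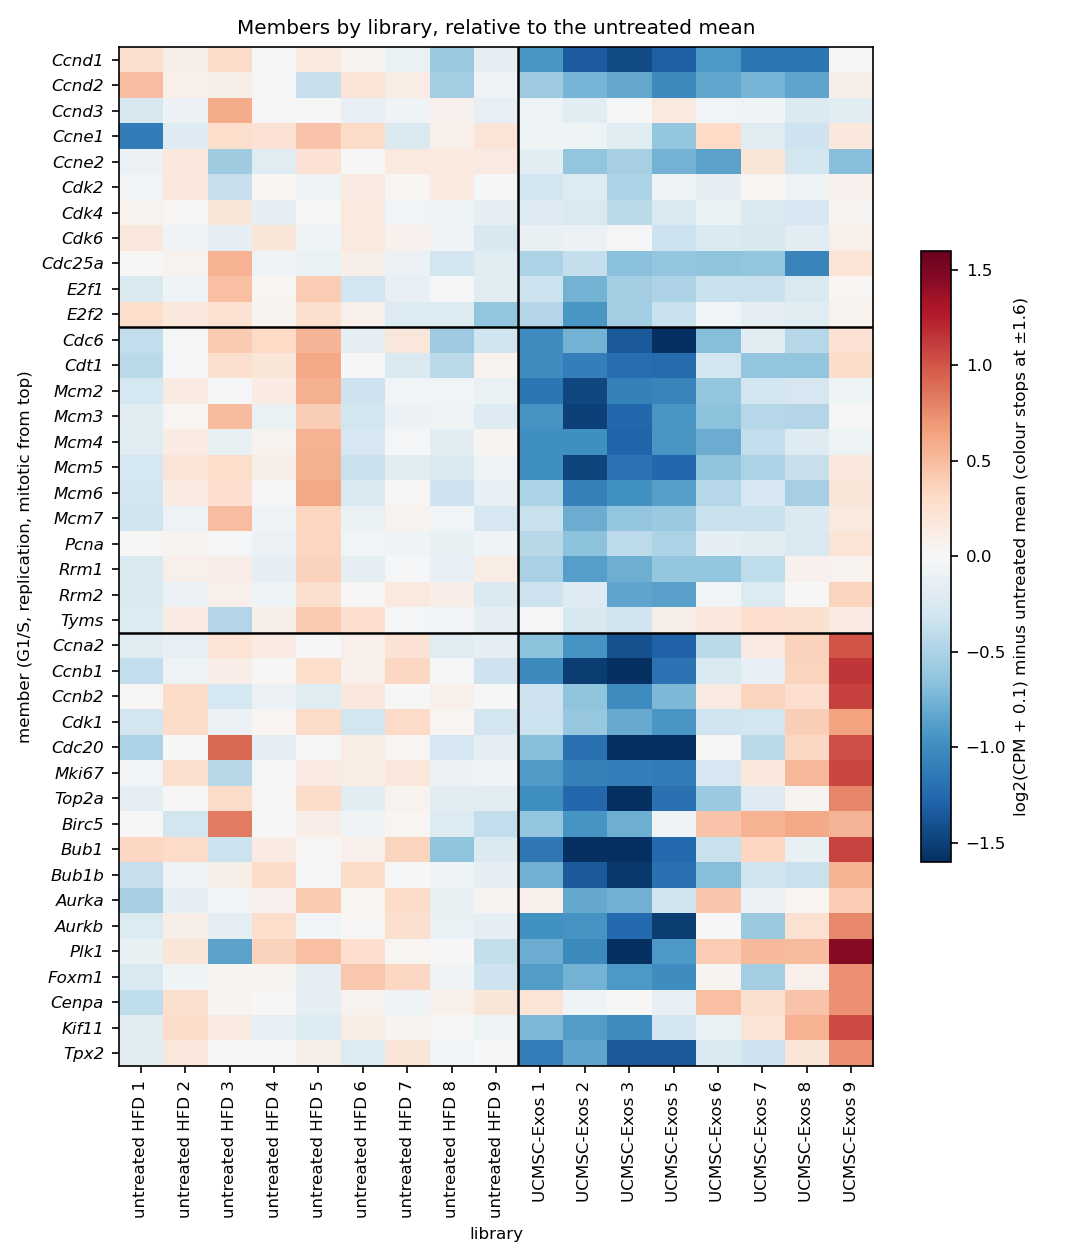
Log2(CPM + 0.1) of each of the 40 genes in each library minus the untreated mean of that gene, with colours that stop at ±1.6; the black lines separate the 3 classes and the 2 groups. The mitotic rows of UCMSC-Exos 1, 2, 3 and 5 are mostly blue and those of UCMSC-Exos 9 red, while the replication rows are mostly blue in UCMSC-Exos 1 to 8.

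The spread within groups is given by class. The median coefficient of variation (SD over mean of CPM) of the mitotic genes was 14.8% in the untreated group and 57.3% in the treated group, and 17 of 17 genes varied more in the treated group. Without UCMSC-Exos 9 the treated value was 44.2% and still 17 of 17 varied more. For replication genes the values were 19.9% untreated, 30.8% treated and 24.8% without UCMSC-Exos 9, and for G1/S genes 18.7%, 20.5% and 11.8%. Over all genes tested the medians were 19.3%, 18.1% and 14.6%, and 49.9% of genes varied more in the treated group, or 35.3% without UCMSC-Exos 9. These are descriptions of 9 and 8 libraries, and the genes of a class share those libraries.

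The mean log2 CPM of a class, minus its untreated mean, placed each library. For G1/S genes the untreated libraries lay between −0.13 and 0.15 and UCMSC-Exos 1, 2, 3, 5, 6, 7 and 8 at −0.35, −0.51, −0.52, −0.52, −0.35, −0.32 and −0.45, with UCMSC-Exos 9 at −0.01. These 7 treated libraries were close together and all below the untreated range. For replication genes the untreated range was −0.25 to 0.47, set at the top by untreated HFD 5, and the same 7 libraries lay at −0.69, −0.93, −0.95, −0.87, −0.43, −0.30 and −0.26, with UCMSC-Exos 9 at 0.14. They too were all below the untreated range, UCMSC-Exos 8 only just.

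For mitotic genes the untreated range was −0.21 to 0.15 and the treated libraries lay at −0.70, −0.99, −1.26, −0.97, −0.07, −0.02, 0.27 and 0.88. UCMSC-Exos 1, 2, 3 and 5 were low in all 3 classes. UCMSC-Exos 6 and 7 were low for G1/S and replication genes and within the untreated range for mitotic genes, and UCMSC-Exos 8 was below it for the first 2 classes and above it for the third. UCMSC-Exos 9 was within the untreated range for G1/S and replication genes and the highest of all 17 libraries in 15 of 17 mitotic genes, 1 of 12 replication genes and 0 of 11 G1/S genes.

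**Figure D4:**
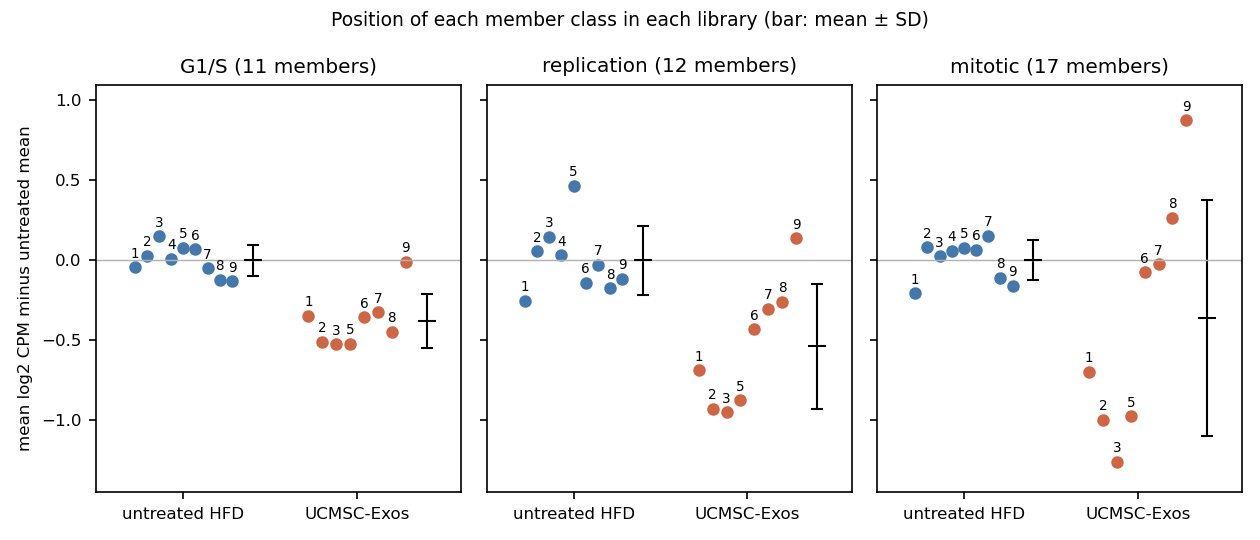
Mean log2 CPM of each class in each library minus the untreated mean, numbered by replicate, with the mean ± SD of each group as a bar. The G1/S positions of UCMSC-Exos 1 to 8 lie from −0.52 to −0.32, and the mitotic positions of the treated libraries spread from −1.26 to 0.88.

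Marker sums of liver cell types were set beside these positions. Some followed them and others did not, and their part was not tested. Summed T and NK cell markers were 14.98 to 23.3 CPM in the untreated libraries and 28.7, 29.7, 30.9, 16.7, 23.1, 28.7, 35.6 and 40.5 CPM in UCMSC-Exos 1, 2, 3, 5, 6, 7, 8 and 9, so that the 2 libraries with the highest mitotic position also had the highest sum. UCMSC-Exos 1, 2 and 3, with low mitotic positions, were above the untreated range as well. Of the 8 T and NK cell markers 1 passed, Cd4, which rose, and the lowest log2 fold change of that list was −0.99. The B and plasma cell sum was 14.8 to 28.2 CPM untreated and 57.9 to 101 CPM in all treated libraries, 9 included at 73.5 CPM. In that list 2 of 7 tested markers rose, both of antibody-secreting cells: Igha from at most 2.87 CPM untreated to 22.1 to 63.6 CPM treated, and Jchain from at most 2.45 to 5.58 to 14.4 CPM (edgeR adjusted p = 3.84e-09 and 1.24e-06). The other 5 did not pass. Erythroid markers, 7 of 8 found in the table, summed to 70.8 to 192 CPM untreated, 194 to 332 CPM in 7 treated libraries and 137 CPM in UCMSC-Exos 9. Kupffer cell and macrophage sums overlapped, at 630 to 1353 CPM untreated and 934 to 1167 CPM treated. Within that list 1 of 8 markers rose and 1 fell. Timd4, of resident Kupffer cells, had at most 11.04 CPM untreated, 17.5 to 35.2 CPM in 7 treated libraries and 1.25 CPM in UCMSC-Exos 9 (log2 fold change 2.39 ± 0.58, edgeR adjusted p = 0.0108). Ccr2, of recruited monocytes, had 14.7 to 36.7 CPM untreated, 7.72 to 16.1 CPM in the same 7 and 22.03 CPM in UCMSC-Exos 9 (−1.12 ± 0.21, edgeR adjusted p = 0.00138). No marker of these 4 lists was at 0 in every library. The 7 treated libraries low in the G1/S and replication classes had the 7 highest hepatocyte sums, so this sum ran opposite to both classes. Their stellate and fibroblast sums lay below the untreated minimum of 808.3 CPM. Their cholangiocyte sums, 48.8 to 128 CPM, overlapped the untreated group, which began at 119.3 CPM. Both untreated minima came from untreated HFD 5, the library with the highest replication position. The arrangement between groups was therefore not seen in that untreated library. Of 8 hepatocyte markers 6 rose and 1 fell. Of 8 cholangiocyte markers 1 fell, and of 8 stellate and fibroblast markers 2 fell, beside 10.4% of all genes. Without UCMSC-Exos 9, 7 of 8 cholangiocyte and 5 of 8 stellate and fibroblast markers fell, beside 20.6% of all genes. The hepatocyte counts were the same without that library, 6 higher and 1 lower.

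Levels can be compared between genes only per length. The length here is all annotated exon bases of a gene, such as 11012 for Rrm1, which a single transcript need not hold. The order is therefore approximate. In CPM per kb of exon, untreated livers held most Ccnd1, at 28.6 ± 4.86 (SD, n = 9), then Pcna at 19.8 ± 2.11, Cdk4 at 12.3 ± 1.05 and Mcm6 at 8.85 ± 2.04. Mcm3, Rrm2, Mcm5 and Mcm7 followed at 7.68 ± 1.58, 6.81 ± 0.797, 6.77 ± 1.54 and 6.44 ± 1.27, and the last 3 differed by less than any of their SDs. Among mitotic genes Cdc20 was highest at 2.95 ± 0.99 and Bub1 lowest at 0.40 ± 0.09, and the class median was 1.33, against 6.19 for replication and 3.65 for G1/S genes. In treated livers Pcna, at 16.3 CPM per kb, was above Ccnd1, at 14.5. Bub1 rested on as few as 13 reads in a library, so its values carry the most counting error.

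Other genes of the pathway were read from 7 further lists with 146 tested genes, of which 16 fell and 10 rose, beside 10.4% and 9.73% of all genes. Without UCMSC-Exos 9, 56 fell and 12 rose, where 3367 of all 16326 genes tested fell and 2456 rose. The lists are described by their members and no list was tested against other genes. The CDK inhibitors and p53 targets, which brake the cycle, had 2 of 17 genes higher and 0 lower (median −0.20; 2 lower and 2 higher at an unadjusted p under 0.05), and without UCMSC-Exos 9 2 higher and 3 lower (median −0.31). The 2 were Trp53inp1, a p53-induced protein, at 114 ± 18.4 CPM untreated and 183 ± 47.8 CPM treated (log2 fold change 0.68 ± 0.15, edgeR adjusted p = 0.00404), and Sesn2, a stress-induced inhibitor of growth signalling, at 15.9 ± 1.73 and 21.4 ± 2.44 CPM (0.43 ± 0.08, edgeR adjusted p = 0.00188). Both had similar log2 fold changes without UCMSC-Exos 9, 0.67 and 0.44. The pocket proteins, other E2F factors and DREAM/MuvB subunits had 1 of 18 higher and 2 lower (median −0.05), and without UCMSC-Exos 9 3 each. Rbl1, the pocket protein p107 and itself an E2F target, fell by 0.61 ± 0.17 (edgeR adjusted p = 0.0162), E2f3 fell by 0.27 ± 0.07 (0.0161), and Rbbp4, a histone-binding subunit, rose by 0.27 ± 0.06 (0.00336).

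Origin and fork genes outside the main list were not uniform. Of 17 genes of origin licensing and firing, 2 fell and 1 rose (median −0.27), beside 10.4% and 9.73% of all genes. Without UCMSC-Exos 9, 6 fell, beside 20.6% of all genes. Orc6 and Orc2, subunits of the origin recognition complex, fell by 0.45 ± 0.11 and 0.34 ± 0.09 (edgeR adjusted p = 0.0105 and 0.0153), with 29.8% of the exon bases of Orc2 shared with Nif3l1. Mcm10, a replication initiation factor that is not a subunit of the helicase ring, ran opposite to Mcm2 to Mcm7. It was at 34.8 to 60.5 CPM in the untreated libraries, 68.7 to 114 CPM in 7 treated libraries and 31.2 CPM in UCMSC-Exos 9, the lowest of all 17. Its log2 fold change was 0.78 ± 0.17 (edgeR adjusted p = 0.00568), and 0.90 without UCMSC-Exos 9.

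Of 27 genes of the replication fork and nucleotide supply, 8 fell and 2 rose (median −0.35), beside 10.4% and 9.73% of all genes. Without UCMSC-Exos 9, 15 fell, beside 20.6% of all genes. Chaf1a, the large subunit of chromatin assembly factor 1, fell by 0.94 ± 0.21 (edgeR adjusted p = 0.00594), though 52.5% of its exon bases are shared with Ubxn6. Pold1, the catalytic subunit of polymerase delta, fell by 0.70 ± 0.19 (0.0156), and Dck, the deoxycytidine salvage kinase, by 0.76 ± 0.11 (2.47e-04). Tk1, thymidine kinase, rose from a mean of 18.7 ± 3.33 to 27.8 ± 4.60 CPM, a log2 fold change of 0.57 ± 0.11 (edgeR adjusted p = 0.00238). Tk1 and Dck are both salvage kinases and moved in opposite directions. The list of S and G2 checkpoint genes had 1 of 14 lower with all libraries and 9 without UCMSC-Exos 9 (medians −0.44 and −0.51). The shares of all genes lower in these 2 fits were 10.4% and 20.6%. The 1 gene lower with all libraries was Fanca at −0.49 ± 0.16 (edgeR adjusted p = 0.0383). Leaving out untreated HFD 2, 4, 6 or 7 or UCMSC-Exos 1, 2, 3, 5 or 6 ended that call (adjusted p up to 0.0768).

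The 36 genes of spindle, kinetochore and cytokinesis, which act with the mitotic class, had 0 passing by edgeR (median −0.22), with 5 lower and 0 higher at an unadjusted p under 0.05. The 2 of smallest p were Spc24, a kinetochore subunit (−0.25 ± 0.11, edgeR adjusted p = 0.104), and Kif2c, a microtubule depolymerase (−0.59 ± 0.26, 0.117). Without UCMSC-Exos 9, 13 of the 36 fell, beside 20.6% of all genes. Of 17 mitogens, receptors and Myc genes, 4 rose and 3 fell (median −0.26), beside 9.73% and 10.4% of all genes. Without UCMSC-Exos 9, 4 rose and 7 fell. Igf1, the growth factor secreted by hepatocytes, went from 282 ± 56.8 to 441 ± 116 CPM (0.64 ± 0.17, edgeR adjusted p = 0.0143), with 208 CPM in UCMSC-Exos 9. Erbb3, a neuregulin receptor, rose by 0.48 ± 0.10 (0.00477). Ccn2 and Ccn1, matricellular proteins that YAP activates, fell by 1.02 ± 0.25 and 0.93 ± 0.25 (edgeR adjusted p = 0.00950 and 0.0158). In UCMSC-Exos 9 they were at 34.9 and 21.9 CPM, within the untreated ranges of 20.8 to 48.7 and 18.4 to 27.0 CPM. With surrogate variables the calls of Rbl1, Mcm10, Orc2, Chaf1a, Pold1, Fanca, Erbb3, Igf1 and Ccn1 ended (edgeR adjusted p from 0.0570 to 0.383).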

How the data were processed

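Liver RNA-seq counts of 9 untreated HFD and 8 UCMSC-Exos mice were read from 1 deposited table. The submitters' processing notes name the build mm10, HISAT2 2.2.1, fastp 1.3.3, Subread 2.0.2 and featureCounts. Per the file headers, the authors counted reads over GENCODE vM25 exons with featureCounts 2.1.1 in paired mode, with no strand or multi-mapping option and without counting pairs as 1. Both mates therefore count, and reads in exon bases shared between genes cannot be assigned with certainty (13 of the 40 share exon bases with another gene). The deposited counts are whole numbers, not normalized. Of 55401 IDs, 55141 matched a symbol; 213 IDs that share a symbol kept their ID as name. There was 1 per-sample column that matched no sample and was not used.

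Genes were filtered with filterByExpr (minimum count 10; 16238 kept), scaled by TMM and tested with the robust quasi-likelihood F test of edgeR 4.0.16 in R 4.3.3, two-sided, with Benjamini-Hochberg adjustment over all genes tested and a threshold of 0.05. The SE is the absolute log2 fold change over the square root of F. The biological coefficient of variation was 0.29. CPM used effective library sizes, and log2 CPM a prior count of 2. No label gives a batch, cage or date. The 40 genes, their classes and the other lists were chosen with earlier results of these data known, and no list was given a test of its own. All 40 are described; from each other list up to 4 passing genes of smallest p are named, or 2 where none passed.

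Promoters were RefSeq entries for GRCm38.p6. Alternatives were RLE and upper quartile scaling, other filters, the replicate number as a block, 3 surrogate variables (sva 3.50.0), DESeq2 1.42.0, limma 3.58.1 voom with quality weights, and leaving out libraries. The steps were tested on simulated counts. No 2 libraries agreed within sampling noise; the closest, UCMSC-Exos 2 and 3, differed 3.79 times as much as such noise gives. P-values judge the difference between groups against the spread between these libraries.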

Additional observations from a re-analysis of the deposited data

Results flagged for a closer look

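In 86 groups of libraries (each of the 40 genes and the 3 class positions, in each group), 13 had 1 library far from the rest by Dixon's criterion; chance flags about 1 in 20 groups. In UCMSC-Exos 9 the high values were Ccnd1 at 133 CPM, Ccnd2 at 35.9 CPM, Cdc25a at 12.8 CPM, Bub1b at 8.35 CPM and Plk1 at 7.71 CPM, and the G1/S position of −0.0088 was high among the treated libraries. For the G1/S genes these values lay within the untreated range, and for Bub1b and Plk1 above it.

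Untreated HFD 5 stood high for 3 replication genes, with Mcm2 at 40.01 CPM, Mcm4 at 30.8 CPM and Pcna at 60.2 CPM. Untreated HFD 3, the library with pancreas transcripts, stood high for Ccnd3 at 59.5 CPM, Cdc25a at 16.1 CPM, Cdc20 at 10.2 CPM and Birc5 at 6.64 CPM. The part of the pancreas transcripts in these 4 values was not tested.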

How the results depend on the processing

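The 13 genes that fell also fell with RLE and upper quartile scaling, and all 40 kept their direction there. The cause of the differences below was not tested. Without the filter on low counts 8 of the 40 fell (3 G1/S, 5 replication; 1062 genes lower in all, 1694 with the filter) and 9 genes of the other lists. With 3 surrogate variables 1549 of 16238 genes passed, 855 lower and 694 higher. There 3 of the 40 fell (Ccnd1, Ccnd2 and Ccne2, with 0 replication genes) and 1 rose, Cenpa, with 4 lower and 6 higher in the other lists. The mitotic median was then 0.051, and the sign differed for Tyms (−0.026), Ccna2 (0.18), Ccnb1 (0.051), Cdc20 (0.20), Mki67 (0.16), Bub1 (0.049), Aurka (0.031) and Foxm1 (0.010). With voom 7732 genes passed (4137 lower) and 31 of the 40 fell (9 G1/S, 11 mitotic), with 69 in the other lists; Tyms (−0.067), Ccnb2 (−0.34), Birc5 (−0.12), Plk1 (−0.64) and Kif11 (−0.38) were below 0. DESeq2 called 16 of the 40, the same 13 and Ccne2, Cdc6 and Pcna, with 2062 genes lower in all. With untreated HFD 3 and 9 left out 11 of the 40 fell (7 G1/S, 4 replication, 0 mitotic), and Tyms (−0.048) and Plk1 (−0.037) were below 0. With UCMSC-Exos 9 left out as well 6716 genes passed, and 22.3% of all genes tested fell. There 26 of the 40 fell (9 G1/S, 6 mitotic), with 54 in the other lists. Tyms (−0.061), Ccnb2 (−0.25), Plk1 (−0.40) and Kif11 (−0.23) were below 0.

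Leaving out 1 library at a time gave 2005 to 5823 genes passing, with 5.65% to 20.6% of all genes tested lower. Of the 40, 7 to 21 fell (G1/S 3 to 6, replication 4 to 11, mitotic 0 to 5). Each of these but the G1/S count was highest without UCMSC-Exos 9. In the other lists 10 to 56 were lower and 9 to 12 higher. Class medians ran from −0.40 to −0.26, −0.73 to −0.51 and −0.48 to −0.12. The sign changed for Tyms (−0.018 to 0.093), Ccnb2 (−0.21 to 0.15), Birc5 (−0.040 to 0.19), Plk1 (−0.25 to 0.25) and Kif11 (−0.23 to 0.11), none of which passed.

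No pairing of the mice by replicate number was seen, although 8 correlations cannot exclude a weak one. Over 8 shared numbers the correlations of deviations ran from −0.17 to 0.24, 2 were over 0.1 and 0 libraries correlated best with their own number. With the replicate block (16 libraries) 9 of the 40 fell (3 G1/S, 6 replication; 1708 genes lower in all), and Ccnb2 (−0.12), Birc5 (−0.015), Plk1 (−0.14) and Kif11 (−0.17) were below 0.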
